A study of Mus musculus with 9 samples.

Results

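The genes described here are the 4 MEF2 transcription factor genes (Mef2a, Mef2b, Mef2c, Mef2d), the 4 genes of the class IIa histone deacetylases (Hdac4, Hdac5, Hdac7, Hdac9), and Srf and Myocd, which encode serum response factor and its cofactor myocardin. They were taken by name, 10 of the 38293 genes in the table. Poly(A) RNA of whole cardiac ventricles at postnatal day 7 (P7) was sequenced in 5 libraries of Arid1a f/f control mice and 4 of aMHC-Cre;Arid1a f/f mice (cKO), their littermates. Both groups carry the floxed Arid1a gene, whose protein belongs to the SWI/SNF chromatin remodeller, and the cKO also carry Cre driven by the αMHC promoter, which is active in cardiomyocytes. No group with Cre alone was analysed here, so effects of Cre and of Arid1a loss cannot be told apart, and the ventricles also hold cells in which the promoter is silent.

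MEF2 factors bind A/T-rich sites and switch on muscle genes in the developing and postnatal heart. Class IIa HDACs bind MEF2 and repress its targets together with the NCoR/SMRT corepressor. When kinases of the CaMK and protein kinase D families phosphorylate them, 14-3-3 proteins bind them and they leave the nucleus. SRF binds CArG boxes, runs of A and T between C and G pairs, and is coactivated by myocardin, by MRTF proteins and by ternary complex factors. The comparison asks whether RNA of these factors differed between control and cKO ventricles.

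The promoters are shown because these factors can bind their own genes and those of their partners. RefSeq (GRCm38.p6) gave a promoter for 9 of the 10 members, Myocd being the exception. From 250 bases before to 50 bases after each start, both strands were searched for the MEF2 consensus site and the CArG box, each of 10 bases, with a place that matched on both strands counted once. A MEF2 site was found at -2 from the start in Mef2a and at -20 in Hdac5, and CArG boxes at -82 and -62 in Srf. Of all 32851 RefSeq promoters, 3.19% held a MEF2 site and 1.63% a CArG box. The promoters of Mef2b, Mef2c, Mef2d, Hdac4, Hdac7 and Hdac9 held neither, which says only that these letters are not in the windows searched. The sequences run from 130 bases before to 20 bases after the start on the gene's strand, with matches in capitals, and that of Mef2d, the member with the smallest adjusted p in the comparison, is added for contrast.
Mef2a, chr7:67372839-67372988, minus strand: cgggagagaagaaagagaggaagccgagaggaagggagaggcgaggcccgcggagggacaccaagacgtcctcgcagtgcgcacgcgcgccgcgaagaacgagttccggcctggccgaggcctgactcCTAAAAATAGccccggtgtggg
Hdac5, chr11:102230153-102230302, minus strand: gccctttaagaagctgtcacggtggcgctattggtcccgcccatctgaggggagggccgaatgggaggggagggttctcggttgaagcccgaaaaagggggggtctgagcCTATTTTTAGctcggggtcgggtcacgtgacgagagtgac
Srf, chr17:46556143-46556292, minus strand: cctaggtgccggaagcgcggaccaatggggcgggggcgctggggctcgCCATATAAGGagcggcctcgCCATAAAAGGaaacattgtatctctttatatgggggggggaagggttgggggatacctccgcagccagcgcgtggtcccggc
Mef2d, chr3:88142242-88142391, plus strand: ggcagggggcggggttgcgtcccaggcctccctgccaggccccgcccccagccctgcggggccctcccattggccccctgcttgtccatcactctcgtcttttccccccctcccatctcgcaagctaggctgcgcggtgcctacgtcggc

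The libraries held 31011055 to 40073801 counts, and the deleted gene Arid1a was at 128.0 to 148.1 CPM (reads of the gene per 1000000 reads counted, after TMM scaling) in controls and at 100.3 to 112.9 CPM in cKO. Both groups are split by Rps3a3 counts, which are low in control replicates 1 and 2 and cKO replicates 1 to 3, high in control replicates 3 to 5 and cKO replicate 4, so that the high set holds 1 cKO library. What sets them apart is not labelled. The libraries differed in GC content as well. The median deviation of genes of at least 54.3% GC minus that of genes of at most 44.9% GC ran from -0.329 in control replicate 4 to 0.454 in cKO replicate 2 on the log2 scale. Cardiomyocyte markers (7 genes, 1 of them lower) summed to 37271 to 43500 CPM in controls and 33451 to 38275 CPM in cKO, and none of these markers was at 0. They mark heart muscle but do not tell ventricle from atrium. Fibroblast markers (6 genes, 4 of them higher) summed to 3871 to 4450 and 5186 to 5538 CPM, and smooth muscle markers (5 genes, 2 of them higher) to 645 to 1000 and 2188 to 3425 CPM, of which Acta2 alone made up 532 to 887 and 2050 to 3300 CPM. Endothelial markers (6 genes, 1 of them lower) summed to 1403 to 1502 and 1369 to 1463 CPM, and mural markers (5 genes, none passed) to 1722 to 1830 and 1699 to 2051 CPM. Macrophage, erythroid, atrial, Schwann cell, lymphocyte and skeletal muscle lists overlapped between the groups in their sums, and of their genes 1 atrial marker passed, as higher. Atrial markers (5 genes) summed to 89 to 166 CPM in controls and 151 to 217 CPM in cKO. Lymphocyte markers were at 4.63 CPM or less in sum and skeletal muscle markers at 2.28 CPM or less, with Myod1 at 0. The part of these cell types in the results was not tested, and in whole ventricles fewer cells of a type and less RNA per cell cannot be told apart.

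Mef2c and Mef2d RNA fell in cKO ventricles, to 0.70 and 0.78 of the control level, while the third MEF2 gene detected, Mef2a, and all 4 class IIa HDAC genes did not pass the test. A gene passed at an adjusted p under 0.05 in edgeR's quasi-likelihood test and was called if the fold also exceeded 1.5. Of the 9 members tested, 2 passed, both lower, and 0 were called. Among all 15318 genes tested 16.3% passed, 8.03% lower and 8.25% higher in cKO, and 6.72% were called. The groups did not overlap in 2 of the 9 members, the same Mef2c and Mef2d, and in 16.7% of all genes. So 2 of 9 is not far from the share of all genes. At an unadjusted p under 0.05 the members counted 2 lower and 1 higher, and DESeq2 passed 2 as lower, 0 as higher and called 0.

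**Figure D1:**
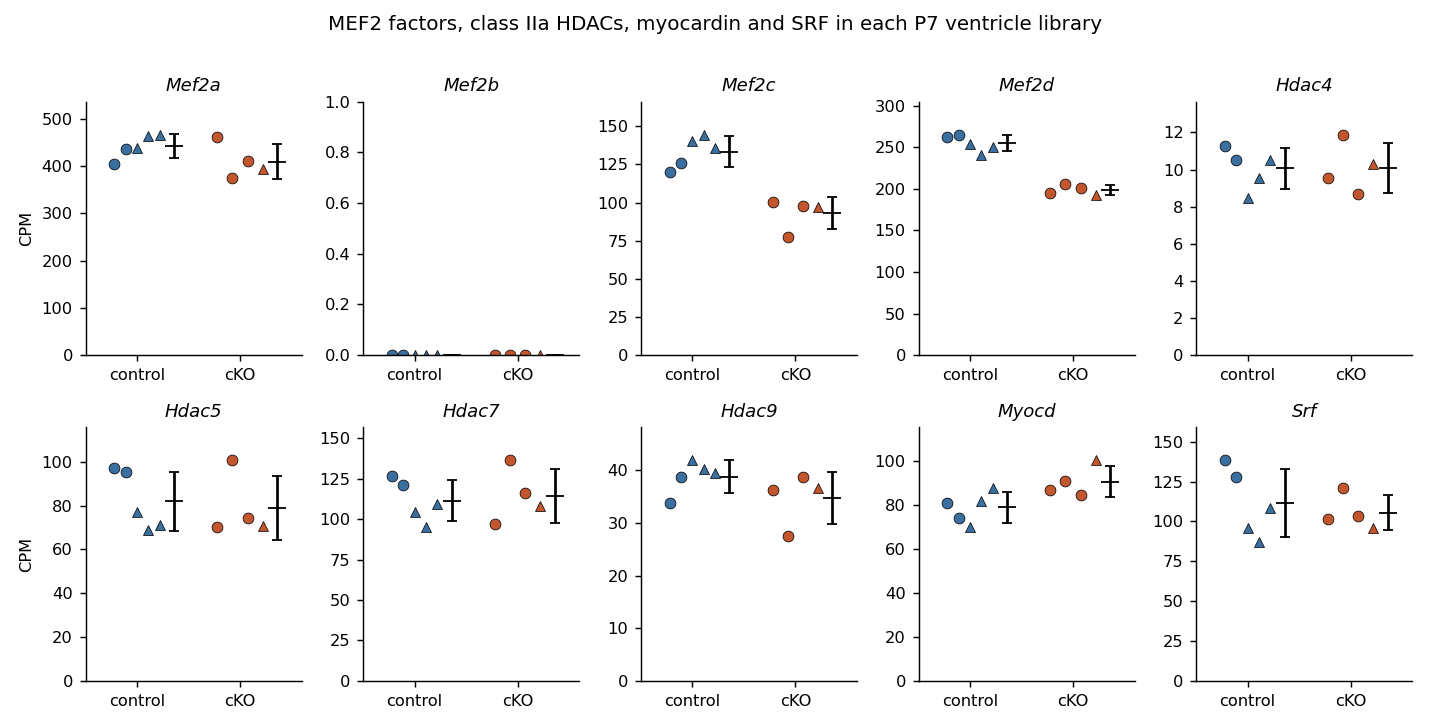
CPM of each member in the 5 control libraries (blue) and 4 cKO libraries (orange), with the mean and SD as a black bar beside each group. Circles are Rps3a3-low and triangles Rps3a3-high libraries. Mef2c and Mef2d separate the groups, Mef2b is at 0, and Hdac5, Hdac7 and Srf are high together in control replicates 1 and 2 and cKO replicate 2.

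Mef2c (ENSMUSG00000005583, GRCm38 chromosome 13, 83504034 to 83667080, plus strand), the factor needed for the embryonic heart tube and right ventricle, was at 119.9, 125.6, 140.3, 144.5 and 136.0 CPM in control replicates 1 to 5. In cKO replicates 1 to 4 it was at 100.3, 77.4, 98.1 and 97.1 CPM. No cKO library reached the lowest control, and cKO replicate 2 was the lowest of all. Means were 133 ± 10.3 CPM for the controls (SD, n = 5) and 93.2 ± 10.6 CPM for the cKO (SD, n = 4). The log2 fold change was -0.52 (SE 0.09, 95% interval -0.70 to -0.33, edgeR adjusted p = 0.00168). Within the libraries of low Rps3a3 the difference was -0.43 and within those of high Rps3a3 -0.53, and in a fit to the 5 Rps3a3-low libraries it no longer passed (-0.42, edgeR adjusted p = 0.0838). Mef2c is also known in endothelium, whose summed markers are given above.

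Mef2d (ENSMUSG00000001419, GRCm38 chromosome 3, 88142372 to 88172086, plus strand), which mediates stress responses of the adult heart, was at 262.0, 265.0, 253.8, 240.8 and 250.5 CPM in the controls. The cKO libraries held 195.4, 205.5, 200.7 and 192.1 CPM. The groups stood apart, with the lowest control above the highest cKO library, and the spread relative to the mean was the smallest of any tested member in both groups. Means were 254 ± 9.62 CPM for the controls (SD, n = 5) and 198 ± 5.91 CPM for the cKO (SD, n = 4), a coefficient of variation of 3.78% and 2.98%. The log2 fold change was -0.36 (SE 0.05, 95% interval -0.48 to -0.24, edgeR adjusted p = 0.000785). Within the low and the high libraries the difference was -0.39 and -0.37, and in the fit to the Rps3a3-low libraries alone it still passed (-0.39, edgeR adjusted p = 0.0256). An antisense gene shares 531 exon bases with Mef2d on the other strand and had 12 to 38 counts. The strand setting of the counting is not stated, but in the 4 libraries with Xist, that gene had 25712 to 36003 counts and its antisense partner Tsix 10 to 126. The study used pups of both sexes, and sex was not a term in any fit.

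Mef2a (ENSMUSG00000030557, GRCm38 chromosome 7, 67231163 to 67372858, minus strand), a main MEF2 gene of the postnatal heart, was at 404.6, 437.2, 439.4, 463.5 and 466.8 CPM in controls. In cKO it was at 461.5, 374.6, 410.4 and 393.2 CPM. The groups overlapped, and cKO replicate 1 lay close to the highest controls. The log2 fold change was -0.11 (SE 0.07, 95% interval -0.27 to 0.05, edgeR adjusted p = 0.339). The estimate for Mef2d, -0.36, lies outside this interval, but the intervals of the 2 genes overlap. The difference between their changes was not tested.

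Mef2b (ENSMUSG00000079033, GRCm38 chromosome 8, 70139711 to 70167488, plus strand), known mainly from lymphoid cells, had 0 counts in each of the 9 libraries and was not tested. A count of 0 allows up to 3 counts, which is 0.0726 to 0.097 CPM by library, for counting error only. Its exons share 62 bases on the same strand with Borcs8, which had 374 to 770 counts. How reads in shared bases were counted is not stated.

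Among the class IIa HDAC genes, which encode repressors of MEF2 targets, 0 of 4 passed in edgeR or DESeq2, and 0 had an unadjusted p under 0.05 in edgeR. Hdac4 (ENSMUSG00000026313, GRCm38 chromosome 1, 91928779 to 92195699) was at 11.3, 10.5, 8.45, 9.5 and 10.5 CPM in controls and at 9.5, 11.9, 8.66 and 10.3 CPM in cKO. Its groups overlapped over almost their whole range, with a log2 fold change of 0.00 (SE 0.12, 95% interval -0.26 to 0.26, edgeR adjusted p = 0.989). Hdac9 (ENSMUSG00000004698, chromosome 12, 34047580 to 34917095), itself known as a MEF2 target, was at 33.7, 38.6, 41.9, 40.3 and 39.5 CPM in controls and at 36.2, 27.6, 38.8 and 36.7 CPM in cKO. Control replicate 1 and cKO replicate 2, the libraries with the largest GC excess, were its lowest in their groups. Its log2 fold change was -0.16 (SE 0.10, 95% interval -0.38 to 0.06, edgeR adjusted p = 0.326), and without cKO replicate 2 it was -0.06.

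Hdac5 (ENSMUSG00000008855, chromosome 11, 102194432 to 102230166), which restrains hypertrophic growth, was at 97.2, 95.4, 77.0, 69.1 and 71.3 CPM in controls and at 70.4, 100.6, 74.2 and 70.7 CPM in cKO. Hdac7 (ENSMUSG00000022475, chromosome 15, 97792664 to 97844502), known for its role in endothelium, was at 126.8, 120.8, 104.5, 95.4 and 109.1 CPM in controls and at 97.1, 136.3, 116.3 and 108.2 CPM in cKO. Both genes were high in control replicates 1 and 2 and in cKO replicate 2, and the groups overlapped. The log2 fold change was -0.05 for Hdac5 (SE 0.14, 95% interval -0.35 to 0.24, edgeR adjusted p = 0.83). That of Hdac7 was 0.04 (SE 0.10, 95% interval -0.19 to 0.27, edgeR adjusted p = 0.833).

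Srf (ENSMUSG00000015605, GRCm38 chromosome 17, 46548329 to 46556175, minus strand), whose promoter holds the pair of CArG boxes shown above and which is a known target of its own protein, was highest in the same 3 libraries as Hdac5 and Hdac7. It was at 138.3, 127.6, 95.8, 87.1 and 108.7 CPM in controls and at 101.5, 121.1, 103.3 and 95.7 CPM in cKO, and the groups overlapped. The log2 fold change was -0.08 (SE 0.13, 95% interval -0.37 to 0.20, edgeR adjusted p = 0.721). Myocd (ENSMUSG00000020542, GRCm38 chromosome 11, 65176561 to 65269989, minus strand), the SRF cofactor of cardiac and smooth muscle, was at 81.0, 74.0, 69.8, 81.9 and 87.9 CPM in controls. In cKO it was at 86.9, 91.1, 84.5 and 100.3 CPM. The cKO mean of 90.7 ± 6.97 CPM (SD, n = 4) lay above the control mean of 78.9 ± 7.08 CPM (SD, n = 5), but control replicate 5 lay within the cKO range. The log2 fold change was 0.20 (SE 0.08, 95% interval 0.03 to 0.37) and did not pass after adjustment over all genes (edgeR adjusted p = 0.11). When the library set entered the fit it was 0.23 and passed (edgeR adjusted p = 0.0484), where 10.3% of all genes passed as higher.

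**Figure D2:**
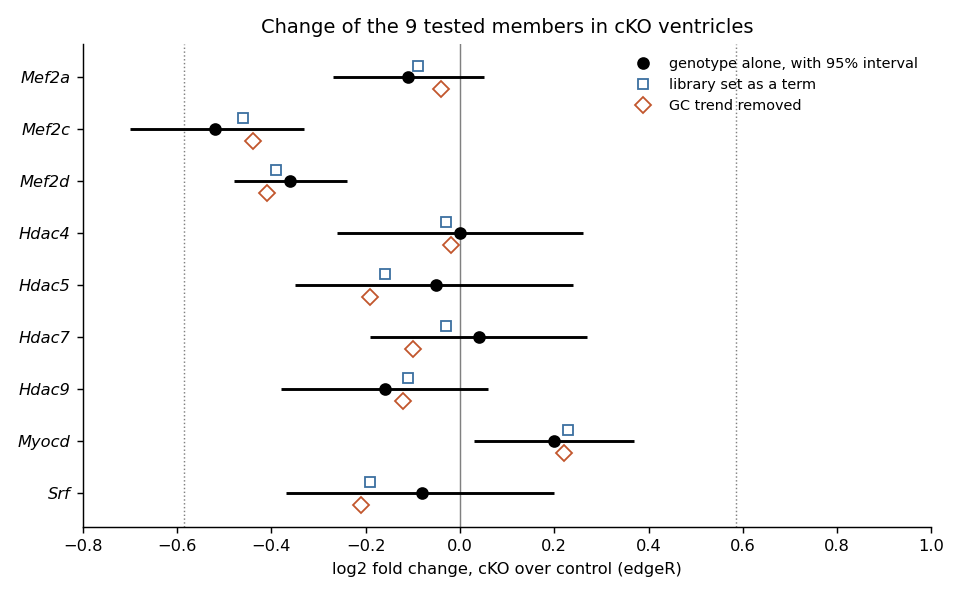
Log2 fold change of the 9 tested members, cKO over control, from edgeR. Filled circles with 95% intervals are from the fit on genotype alone, squares from the fit with the library set as a term and diamonds from the fit with each library's GC trend removed, and dotted lines mark a fold of 1.5. Only the intervals of Mef2c, Mef2d and Myocd exclude 0, and Hdac5, Hdac7 and Srf move down most when the GC trend is removed.

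Hdac5, Hdac7 and Srf were highest in control replicates 1 and 2 and cKO replicate 2, the 3 libraries with the largest excess of GC-rich genes, while the other 6 libraries did not follow the order of that excess in every gene. The part of GC content in these levels was not tested. They are the most GC-rich members detected, with 59.8%, 60.2% and 64.4% GC in the longest transcript. In control replicates 1 and 2, with a GC-rich excess of 0.231 and 0.105, all 3 genes lay 0.13 to 0.33 above their control mean on the log2 scale. In cKO replicate 2, with 0.454, they lay 0.37, 0.26 and 0.21 above their cKO mean. Mef2c, at 40.8% GC, went the other way and lay 0.15 below its control mean in control replicate 1 and 0.26 below its cKO mean in cKO replicate 2. Mef2d, at 55.0% GC, stayed within 0.08 of its group means in all 9 libraries. With each library's GC trend removed, an alternative chosen after seeing the data, Hdac5 was at -0.19 (SE 0.05, edgeR adjusted p = 0.0176) and Srf at -0.21 (SE 0.06, edgeR adjusted p = 0.0303), and both passed as lower. Mef2c was then at -0.44 (edgeR adjusted p = 1.2e-05) and Mef2d at -0.41 (edgeR adjusted p = 3.9e-05). In that fit 4 members passed as lower, against 12.0% of all genes. Hdac7 stayed short of the threshold at -0.10 (SE 0.05, edgeR adjusted p = 0.15). Control replicates 1 and 2 are also the Rps3a3-low controls, so among the controls GC excess and library set cannot be told apart. With the library set as a term, Hdac5 was at -0.16 (edgeR adjusted p = 0.333), Hdac7 at -0.03 (edgeR adjusted p = 0.884) and Srf at -0.19 (edgeR adjusted p = 0.164).

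**Figure D3:**
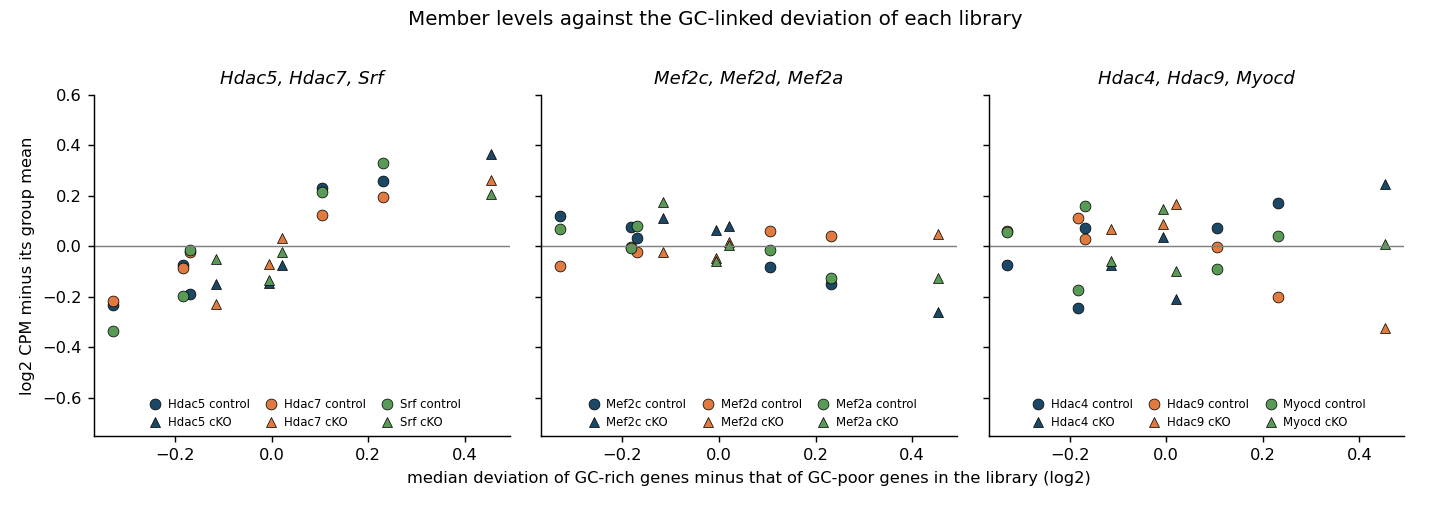
Log2 CPM minus the group mean (y axis) of each tested member against the GC-linked deviation of the library (x axis, log2), with circles for control and triangles for cKO libraries. Hdac5, Hdac7 and Srf span -0.33 to 0.37 and are above 0 in the 3 libraries at the right, while Mef2c is below 0 in those and Mef2d stays within 0.08 of 0.

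Per kilobase of exon, which makes genes comparable within a library, Mef2d and Mef2a made up most MEF2 RNA, and Hdac7 most class IIa HDAC RNA. In controls Mef2d was at 42.5 ± 1.61, Mef2a at 30.1 ± 1.70 and Mef2c at 8.48 ± 0.652 CPM per kilobase (SD, n = 5), and in cKO at 33.2 ± 0.987, 27.9 ± 2.55 and 5.93 ± 0.677 CPM per kilobase (SD, n = 4). The sum of the MEF2 genes was 79.0 to 82.3 CPM per kilobase in controls and 64.8 to 70.5 in cKO, without overlap. Mef2a accordingly held a larger share of MEF2 RNA in cKO, 41.6% ± 2.18 against 37.1% ± 1.69, and Mef2c a smaller one, 8.84% ± 0.847 against 10.5% ± 0.746. The share of Mef2d was 49.5% ± 2.73 in cKO and 52.4% ± 2.32 in controls, and its ranges overlapped. These shares carry no test.

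The order of Mef2a and Mef2d depended on the length used. Over the longest transcript instead of all annotated exons, Mef2a was first in controls, with 53.9% of MEF2 RNA against 31.8% for Mef2d, while Mef2c stayed last of the detected genes. In the class IIa HDACs the order was Hdac7, Hdac5, Hdac9 and Hdac4 by either length. Hdac7 was at 16.5 ± 1.86, Hdac5 at 9.34 ± 1.52, Hdac9 at 2.65 ± 0.211 and Hdac4 at 0.637 ± 0.0695 CPM per kilobase in controls (SD, n = 5), and no neighbours in this order overlapped. Their sum was 25.3 to 32.9 CPM per kilobase in controls and 25.5 to 34.3 in cKO. Srf was at 38.5 ± 7.38 and Myocd at 12.3 ± 1.10 CPM per kilobase in controls, against 36.4 ± 3.79 and 14.1 ± 1.08 in cKO (SD, n = 4).

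**Figure D4:**
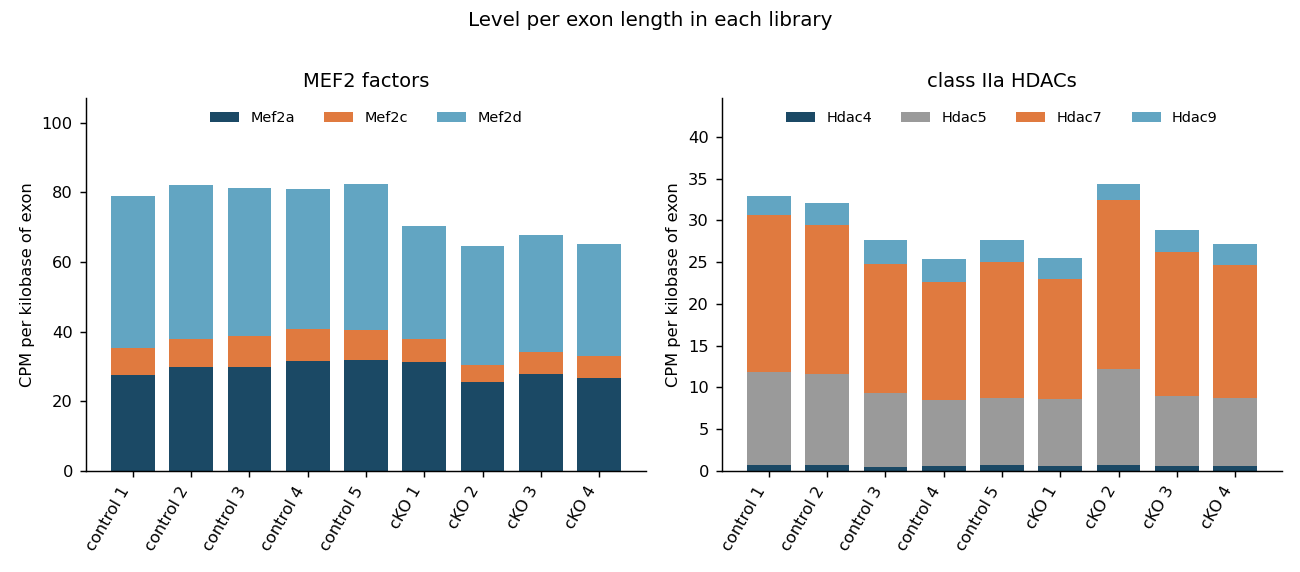
CPM per kilobase of annotated exon in each of the 9 libraries, stacked by gene, for the MEF2 genes (left, Mef2b at 0 not drawn) and the class IIa HDAC genes (right). The MEF2 stacks are lower in all 4 cKO libraries than in the 5 controls, and the HDAC stacks overlap, with the tallest in cKO replicate 2.

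Around the members, 16 genes were listed of kinases that phosphorylate class IIa HDACs or act upstream of them. Of these, 6 passed as lower and 0 as higher, where 8.03% of all genes passed as lower and 8.25% as higher. The count of 0 as higher also held at an unadjusted p under 0.05 and in DESeq2. The list's median log2 fold change was -0.15, and that of all genes was 0.01. The other 10 kinase genes did not pass, and 4 of the 16 had changes above 0, up to 0.29. Prkd1, which encodes protein kinase D1, fell from 13.3 ± 1.5 CPM in controls (SD, n = 5) to 6.75 ± 1.11 CPM in cKO (SD, n = 4), and its log2 fold change was -0.98 (SE 0.13, edgeR adjusted p = 0.000361). The CaM kinase genes Camk1 (-0.55, SE 0.07, edgeR adjusted p = 0.000218) and Camk2g (-0.51, SE 0.06, edgeR adjusted p = 0.000159) fell as well. Camk2d, the main CaMKII gene of the heart, fell from 333 ± 17.9 to 252 ± 17.1 CPM (-0.40, SE 0.07, edgeR adjusted p = 0.00147). These 4 genes did not overlap between the groups, as 16.7% of all genes did not, and passed in every fit that left out 1 library. The other 2 that passed, Camk2a (-0.20, edgeR adjusted p = 0.0342) and Mark3 (-0.19, edgeR adjusted p = 0.0409), passed in 4 and 0 of the 9 such fits. Sik3, named for this, passed in 2 of them but not in all libraries (-0.43, edgeR adjusted p = 0.106). Without 1 library 4 to 5 kinase genes passed. In the Rps3a3-low libraries alone 4 kinase genes passed as lower, where 2.87% of all genes did, of which Sik1, named for this, had not passed in all libraries (edgeR adjusted p = 0.0497 and 0.417), and Camk2d did not (-0.35, edgeR adjusted p = 0.065).

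Of the 7 genes of 14-3-3 proteins, which bind phosphorylated HDACs, 1 passed as lower, against 8.03% of all genes, and the median was -0.05. It was Ywhae (-0.21, SE 0.05, edgeR adjusted p = 0.0188), and without cKO replicate 3 it did not pass (-0.21, edgeR adjusted p = 0.0536). Of 12 genes of other HDACs and the NCoR/SMRT corepressor 1 rose and 1 fell, against 8.25% and 8.03% of all genes, with a median of -0.14. Hdac6, a class IIb HDAC of the cytoplasm, rose from 47.3 ± 2.86 to 63.2 ± 8.36 CPM (0.42, SE 0.09, edgeR adjusted p = 0.0075). Hdac11, the class IV HDAC, fell from 20.8 ± 1.36 to 15.7 ± 2.35 CPM (-0.40, SE 0.10, edgeR adjusted p = 0.0207), and it did not pass without cKO replicate 1 (-0.36, edgeR adjusted p = 0.0515) or 4 (-0.33, edgeR adjusted p = 0.0626).

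Of 11 MEF2 activators and coregulators 10 were tested, 2 passed as lower and 0 as higher, the latter also at an unadjusted p under 0.05 and in DESeq2, against 8.03% and 8.25% of all genes, and the median was -0.11. Ppp3cb, a catalytic subunit gene of the phosphatase calcineurin, which activates MEF2, changed by -0.35 (SE 0.08, edgeR adjusted p = 0.0157). Mapk14, which encodes the MEF2-activating kinase p38 alpha, changed by -0.21 (SE 0.06, edgeR adjusted p = 0.0338). It did not pass in each fit without control replicate 3, 4 or 5 or cKO replicate 2, 3 or 4, with changes of -0.20 to -0.19 and adjusted p of 0.0671 to 0.0864. Of 8 SRF cofactors 0 passed in edgeR's test or in DESeq2, 2 were lower and 2 higher at an unadjusted p under 0.05, and the median was 0.00. Besides genes of MRTF proteins and ternary complex factors, this list holds Hopx, Fhl2 and Foxo4, so it is not made of coactivators alone.

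Genes known as MEF2 targets went both ways, with 3 of 19 lower, 4 higher and a median of -0.02, where 8.03% of all genes were lower and 8.25% higher. In the Rps3a3-low libraries alone 3 passed as lower and 1 as higher, where 2.87% and 2.57% of all genes did. The higher one was Xirp2, and of the lower ones only Myl2 had also passed in all libraries. The others, named for this, were Slc2a4 (-0.49, edgeR adjusted p = 0.0151) and Nr4a1 (-1.46, edgeR adjusted p = 0.00333), while Smyd1 (-0.17, edgeR adjusted p = 0.294) and Jun (-0.43, edgeR adjusted p = 0.0873) did not pass there. Myl2, the ventricular myosin light chain, fell from 9977 ± 732 CPM in the controls (SD, n = 5) to 7395 ± 315 CPM in the cKO (SD, n = 4), which is -0.43 on the log2 scale (SE 0.07, edgeR adjusted p = 0.00124). Des, which encodes the intermediate filament protein desmin, rose (0.42, SE 0.10, edgeR adjusted p = 0.0152), as did Hrc, a calcium-binding protein of the sarcoplasmic reticulum (0.40, SE 0.09, edgeR adjusted p = 0.0102). Xirp2, an actin-binding protein gene whose promoter holds a MEF2 site, rose (0.83, SE 0.24, edgeR adjusted p = 0.0442). Of the fits without 1 library, Xirp2 passed only in those without control replicate 5 or cKO replicate 1, and in the other 7 its adjusted p was 0.0648 to 0.099, with 0.59 as the smallest change, without cKO replicate 4. It also passed when the library set entered the fit (1.05, edgeR adjusted p = 9e-05), in the Rps3a3-low libraries alone (0.96, edgeR adjusted p = 0.00538) and with the GC trend removed (0.92, edgeR adjusted p = 0.0244). MEF2 sites stood in the promoters of 4 of the 16 genes of this list that had a promoter sequence, against 3.19% of all promoters, and the list was made of genes known as MEF2 targets. Of these 4, named for the match in their promoter, Xirp2 rose and Jun fell (-0.35, edgeR adjusted p = 0.0385). Jun passed in 2 of the 9 fits without 1 library. Srpk3 (0.15, edgeR adjusted p = 0.252) and Pgam2 (0.32, edgeR adjusted p = 0.0659) did not pass.

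Genes known as SRF targets were mostly higher where they passed, with 10 of 25 higher, 1 lower and a median of 0.24, where 8.25% of all genes were higher and 8.03% lower. In the Rps3a3-low libraries alone 3 passed as higher and 1 as lower, where 2.57% and 2.87% of all genes did. The largest was Nppa, the gene of atrial natriuretic peptide, with 114 ± 9.18 CPM in the controls (SD, n = 5), 1721 ± 724 CPM in the cKO (SD, n = 4) and a change of 3.92 on the log2 scale (SE 0.32, edgeR adjusted p = 0.000121). Cnn1, smooth muscle calponin, rose by 2.78 (SE 0.22, edgeR adjusted p = 1.2e-05) and Acta2, smooth muscle actin, by 2.10 (SE 0.16, edgeR adjusted p = 1.2e-05). Both also stand in the smooth muscle marker list, of which they are the 2 of 5 genes that passed, and most of that list's sum is Acta2. Of the others, Tagln was at 0.31 (SE 0.11, edgeR adjusted p = 0.0672), Myh11, smooth muscle myosin, at -0.30 (SE 0.13, edgeR adjusted p = 0.139) and Lmod1 at 0.24 (SE 0.19, edgeR adjusted p = 0.433), and none of these passed. The SRF target that passed as lower, named after its values were seen, was Smtn, which encodes smoothelin of contractile smooth muscle (-0.56, SE 0.16, edgeR adjusted p = 0.0414), and it passed in 2 of the 9 fits without 1 library. The part of smooth muscle cells in these changes was not tested. Acta1, skeletal actin, was at 43.2 to 86.3 CPM in controls and 53.6 to 402 CPM in cKO, and its change of 2.18 (SE 0.56, edgeR adjusted p = 0.0369) passed, of the fits without 1 library, only in those without control replicate 1 or cKO replicate 1. In the other 7 such fits its adjusted p was 0.0668 to 0.0978. CArG boxes stood in the promoters of 6 of 20 genes of this list that had a promoter sequence, against 1.63% of all promoters, and the list was made of genes known for SRF binding. Of these 6, named for the match in their promoter, Acta1, Cnn2 and Myl9 rose and Actc1, Actg1 and Vcl did not pass.

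Of the 17 pathway genes named, 7 still passed in the fit to the 5 Rps3a3-low libraries (Prkd1, Camk1, Camk2g, Myl2, Xirp2, Cnn1 and Acta2) and 16 with the library set as a term, where Acta1 did not (edgeR adjusted p = 0.0631). In the Rps3a3-low libraries Nppa was at 3.70 (edgeR adjusted p = 0.0625), Hrc at 0.36 (edgeR adjusted p = 0.0597), Des at 0.28 (edgeR adjusted p = 0.393) and Acta1 at 1.94 (edgeR adjusted p = 0.495). Hdac6 was at 0.39 (edgeR adjusted p = 0.14) and Hdac11 at -0.39 (edgeR adjusted p = 0.176). Ppp3cb was at -0.21 (edgeR adjusted p = 0.286), Mapk14 at -0.13 (edgeR adjusted p = 0.491) and Ywhae at -0.14 (edgeR adjusted p = 0.34).

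**Figure D5:**
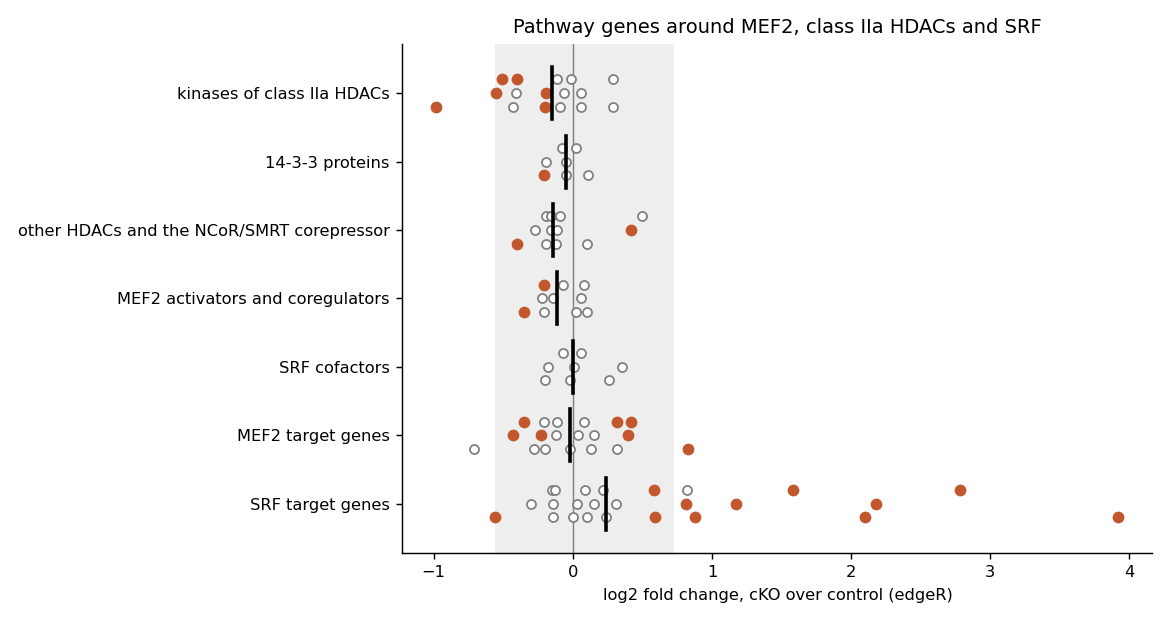
Log2 fold change, cKO over control, of each tested gene of the 7 pathway lists, filled where it passed and open where it did not, with the list's median as a black line. The grey band spans the 5th to 95th percentile of all 15318 genes, -0.55 to 0.72. The kinase genes that passed lie on the lower side and most SRF target genes that passed on the higher side.

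The genes most like the members across libraries were found by the correlation of log2 CPM over the 9 libraries. Genes measured in the same libraries share each library's depth, GC deviation and genotype, so the values are descriptions. Among 10697 genes, those most like Mef2d were Slc37a4, Slc41a1 and Akt2, each with r = 0.994, and their deviations from the group means correlated with those of Mef2d at 0.917, 0.894 and 0.884. The GC content of these genes, 54.1% to 55.5%, was close to that of Mef2d. Those most like Mef2c were Rasa2 (r = 0.996), Cdc40 (r = 0.992) and Tmem245 (r = 0.992), at 39.8% to 43.0% GC for the first pair and 43.8% for Tmem245, with correlations of deviations of 0.986, 0.961 and 0.958. For Myocd they were Mtmr4 (r = 0.961), Sntb2 (r = 0.958) and Ldlrad4 (r = 0.943), none of which passed the test of genotype.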

How the data were processed

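Poly(A) RNA of P7 ventricles was measured in 9 libraries. The authors made libraries with a stranded kit, sequenced single-end reads, mapped them to mm10 and deposited raw read counts per gene in 1 table. The submitters' processing notes name STAR 2.4.2a and HTSeq 0.6.1, and the annotation is not given in the sources used here. The methods give fewer controls than the labels, and every library labelled as a control was used. The table had 0 unmatched sample columns.

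The members and gene lists were chosen with earlier results of these data known. Identifiers were matched to GENCODE M21, with 36345 of 38293 found. Counts were scaled by TMM and tested in edgeR 4.0.16 (R 4.3.3) with filterByExpr at a minimum count of 10 and the robust quasi-likelihood F test on genotype alone. Tests were two-sided, with Benjamini-Hochberg adjustment over 15318 genes, and the fit was tested on simulated data. The labels do not name the animal behind each library, so p-values measure the spread between these libraries. From each pathway list, up to 4 genes that passed with the largest changes were named. For the 3 members with the smallest adjusted p, the 3 most alike genes of a mean of at least 5 CPM were named.

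Alternatives were DESeq2 1.42.0, RLE and upper-quartile scaling, other filters, the replicate number as a block, the library set as a term, the Rps3a3-low libraries alone, another exon length and leaving out each library. Removal of each library's trend on transcript GC content, and the Rps3a3-low libraries alone for the pathway lists, were chosen after seeing the data. The trend was estimated over bins of 5% of genes and entered as offsets. Promoter sequences came from RefSeq on GRCm38.p6.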

Additional observations from a re-analysis of the deposited data

Results flagged for a closer look

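A library far from the others of its group was looked for in 18 sets of values, the CPM of the 9 tested members in each group. Chance flags about 1 in 20 such sets, and 2 were flagged, both for cKO replicate 2. Mef2c was lowest there, at 77.4 CPM against 97.1 to 100.3 CPM in the other cKO libraries, and the gap was 0.859 of the range of the 4 libraries. Hdac5 was highest there, at 100.6 CPM against 70.4 to 74.2 CPM, and the gap was 0.874 of the range. Without this library the log2 fold change of Mef2c was -0.44 and that of Hdac5 was -0.19. The same library had the largest excess of GC-rich over GC-poor genes among the 9, at 0.454 on the log2 scale. The part of GC content in the flagged values was not tested.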

How the results depend on the processing

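Mef2c and Mef2d kept their direction and passed under DESeq2, RLE and upper-quartile scaling, both other filters, the library set as a term, the GC trend and each omission of 1 library (-0.55 to -0.44 and -0.38 to -0.34); with the Rps3a3-low libraries alone Mef2c weakened to -0.42. Of the members that did not pass, Hdac4, Hdac5, Hdac7 and Srf crossed 0 under some settings, and Mef2a, Hdac9 and Myocd did not. Hdac4 was at -0.0015 without a filter, -0.03 with the set term, -0.12 in the Rps3a3-low libraries and -0.02 with the GC trend removed. Hdac7 was at -0.03, -0.08 and -0.10 under the last 3 of these. With the set term Hdac5 was at -0.16 and Srf at -0.19. In the Rps3a3-low libraries Hdac5 was at -0.23 (edgeR adjusted p = 0.491) and Srf at -0.29 (edgeR adjusted p = 0.17), and neither gene passed in these 2 fits. Leaving out 1 library gave -0.08 to 0.07 for Hdac4, -0.19 to 0.01 for Hdac5, -0.05 to 0.11 for Hdac7 and -0.16 to 0.01 for Srf. Hdac5 (-0.19) and Srf (-0.21) passed with the GC trend removed and Myocd (0.23) with the set term. Members passed as lower were 1 in the Rps3a3-low libraries and 4 with the GC trend removed, and 1 passed as higher with the set term. The causes were not tested.

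The replicate number as a block, over the 8 libraries numbered 1 to 4, gave -0.52 for Mef2c (adjusted p = 0.00574 by edgeR) and -0.37 for Mef2d (adjusted p = 0.00766), and did not change which members passed. Same-numbered libraries correlated in their deviations at 0.023, 0.036, 0.011 and 0.232, so the numbers were not taken as pairs. Genes passed numbered 1729 with the block and 1908 in the same 8 libraries without it. They numbered 2493 in all 9 libraries, 849 in the Rps3a3-low libraries, 3049 with the set term and 3504 with the GC trend removed. Of 17 named pathway genes 13 passed with the block.

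With the longest transcript as length, the shares in controls and cKO were 53.9% and 58.9% for Mef2a, 14.3% and 11.8% for Mef2c, 31.8% and 29.3% for Mef2d, 2.91% and 2.95% for Hdac4, 35.3% and 34.4% for Hdac5, 50.2% and 52.1% for Hdac7, and 11.6% and 10.6% for Hdac9.

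For the kinase list the median moved to -0.20 in the Rps3a3-low libraries, -0.21 with the GC trend removed and -0.20 to -0.13 without 1 library. For 14-3-3 proteins 0 passed in the Rps3a3-low libraries, and without 1 library the median was -0.10 to -0.0016 and 0 to 1 passed as lower. For other HDACs and corepressors the median was -0.10 with the set term, -0.12 in the Rps3a3-low libraries, -0.09 with the GC trend removed and -0.15 to -0.11 without 1 library. Genes passed there as lower were 2 under DESeq2, RLE and the set term, 0 in the Rps3a3-low libraries, 3 with the GC trend removed and 0 to 2 without 1 library, and as higher 2 under DESeq2, 0 in the Rps3a3-low libraries, 2 with the GC trend removed and 1 to 2 without 1 library. For MEF2 activators 0 passed as lower in the Rps3a3-low libraries, 4 with the GC trend removed and 1 to 3 without 1 library. For SRF cofactors 2 passed as higher with the GC trend removed and 0 to 1 without 1 library, whose medians were -0.03 to 0.08. For MEF2 targets 5 passed as lower with the set term, 6 with the GC trend removed and 1 to 3 without 1 library, and as higher 1 in the Rps3a3-low libraries and 2 to 4 without 1 library. For SRF targets 2 passed as lower with the set term and 0 to 1 without 1 library, 3 passed as higher in the Rps3a3-low libraries, and the median without 1 library was 0.20 to 0.36.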
